A study of Petromyzon marinus with 12 samples.

Results

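HPX, APOC3 and CETP encode proteins that vertebrates release into the blood, and all 3 were measured here in the endostyle of the sea lamprey, Petromyzon marinus. They are 3 of the 21967 genes in the deposited count table and 3 of the 16526 genes with enough counts to be tested. The choice was made by measured values: HPX for a level that was high at a single stage, APOC3 and CETP for levels that went down over the same stages. Those stage levels are therefore given as a description, with fold changes and standard errors (SE) but no test. HPX stands in the table under its symbol. APOC3 stands there as LOC116948127 and CETP as LOC116945897, and both were named through the RefSeq gene table.

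The endostyle is the mucus-secreting organ below the pharynx of lamprey larvae, and at metamorphosis it turns into the thyroid gland. The study sequenced endostyle RNA at 4 developmental stages, and each of T27, T28, T29 and T30 is represented by 3 libraries. Every library carries the genotype label WT and the tissue label endostyle, and its treatment label repeats the stage, so by their labels the groups differ only in stage. The labels name neither the staging scheme nor an age, and they leave unsaid whether a stage's 3 libraries are separate animals, pools or preparations. The spread between them, and the p-values that rest on it, may therefore be technical.

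Hemopexin, the HPX product, is a plasma glycoprotein that binds free haem tightly and carries it to cells, which limits the damage that loose haem can do. Apolipoprotein C-III, the APOC3 product, rides on triglyceride-rich lipoproteins and in mammals slows their breakdown by lipoprotein lipase. Cholesteryl ester transfer protein, the CETP product, swaps cholesteryl esters and triglycerides between lipoprotein particles. In mammals the liver is a main source of all 3, and the gut also makes APOC3.

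The 12 libraries held between 28371140 and 36032488 counts assigned to genes. The first principal component of log2 expression carried 68.5% of the variance and ordered the stages from T27 to T30. On it the T28 libraries lay between -32.5 and -28.4, T27 replicate 1 at -58.1, and T27 replicates 2 and 3 at -77.5 and -80.2. The 5 marker genes of an endostyle or thyroid epithelium given here (SLC5A5, IYD, PAX2, HHEX and FOXA2) had counts in every library. SLC5A5, the iodide transporter, ranged from 5.34 to 119.3 counts-per-million (CPM) over the 12 libraries. In whole tissue, fewer cells of a type and less RNA per cell cannot be told apart, and this holds for every level below.

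HPX was high at T28 alone. CPM here are counts-per-million values after scaling of the libraries by the trimmed mean of M-values (TMM). The T27 libraries held 27.7, 17.4 and 12.9 CPM of HPX, and the T28 libraries 76.0, 77.6 and 73.8 CPM. The T29 libraries held 26.0, 27.9 and 26.6 CPM, and the T30 libraries 20.9, 22.5 and 21.2 CPM. Every T28 library was far above every library of the other stages, and the T27 libraries lay on both sides of the T30 libraries and overlapped those of T29. The T28 counts behind these levels were 2376, 2664 and 2494 reads, against 386 to 997 reads in each other library.

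The mean of HPX was 19.3 ± 7.56 CPM (SD, n = 3) at T27 and reached 75.8 ± 1.93 CPM (SD, n = 3) at T28. It was 26.8 ± 0.98 CPM (SD, n = 3) at T29 and 21.55 ± 0.85 CPM (SD, n = 3) at T30. The fitted log2 change from T27 to T28 was 1.97 (SE 0.18), which is 3.92-fold and ranked 296th from the highest of the 16526 genes. The fitted log2 change from T28 to T29 was -1.50 (SE 0.18), which is 2.83-fold lower and ranked 111th from the lowest. From T29 to T30 the log2 change was -0.32 (SE 0.18), which ranked 5038th from the lowest, well inside the range of most genes. The libraries of these 2 stages did not overlap. Between T27 and T30 the libraries did overlap, at a log2 change of 0.16 (SE 0.18). The share of all genes tested whose libraries did not overlap was not counted for any comparison.

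The ratio of the T28 mean to the next highest stage mean was 2.83 for HPX, which placed it 15th among the 16526 genes. In all, 39 genes, or 0.236% of those tested, had a T28 mean at least 2 times that of every other stage, a limit chosen after the data were seen. By the test across all genes, 96 genes rose at T28 and fell at T29, which is 0.581% of those tested. That count was 54 without T28 replicate 1.

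**Figure D1:**
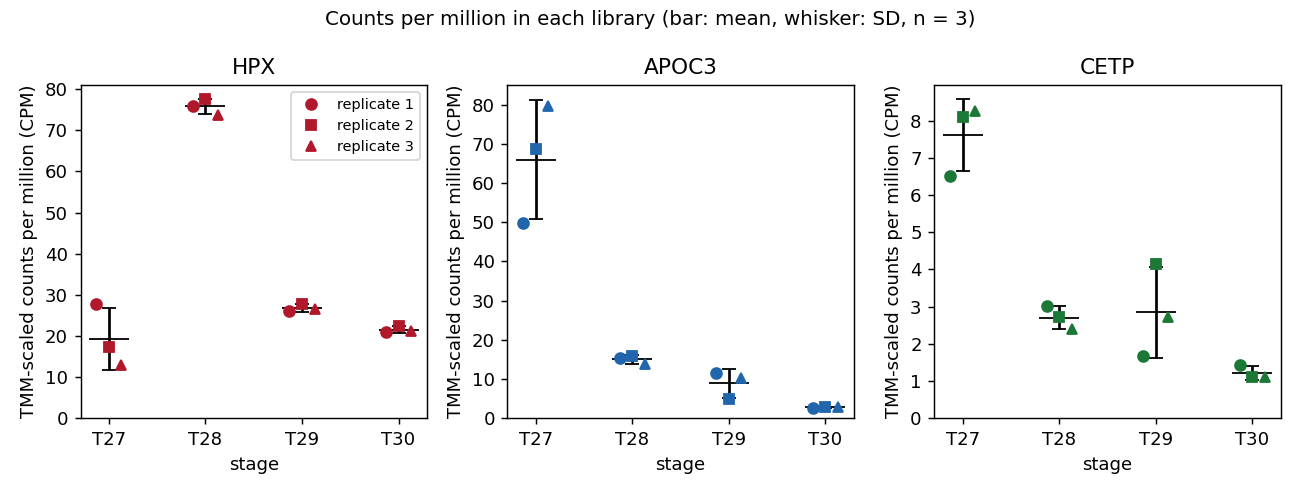
Counts-per-million values (vertical axis, linear from 0) of HPX, APOC3 and CETP in each library at the 4 stages (horizontal axis). Markers are single libraries, the bar is the mean and the whisker the SD of 3 libraries. The T28 libraries of HPX lie between 73.8 and 77.6 CPM, above all others, while APOC3 and CETP are highest in the T27 libraries.

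APOC3 went the other way at T28 and had the widest range of the 3. Its T27 libraries held 49.8, 68.6 and 79.7 CPM, and its T28 libraries 15.4, 15.9 and 13.8 CPM. At T29 they held 11.5, 4.78 and 10.4 CPM, and at T30 2.67, 2.88 and 2.85 CPM. The libraries of neighbouring stages did not overlap at any of the 3 steps, so the order T27, T28, T29, T30 held library by library. How many of all genes tested showed such an order by library was not counted. The T30 values rest on 82 to 99 reads per library and the T27 values on 1650 to 2384.

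The mean of APOC3 was 66.0 ± 15.1 CPM (SD, n = 3) at T27 and 14.99 ± 1.10 CPM (SD, n = 3) at T28. It was 8.89 ± 3.61 CPM (SD, n = 3) at T29 and 2.80 ± 0.116 CPM (SD, n = 3) at T30. The fitted log2 changes at the 3 steps were -2.14 (SE 0.24), -0.75 (SE 0.24) and -1.67 (SE 0.27). The middle step is the smallest of them, and it depended on T29 replicate 2: without that library it was -0.45. Over the whole span the log2 change was -4.56 (SE 0.28), a level 23.6-fold lower at T30, which ranked 24th from the lowest of the 16526 genes. Stage means went down at every step for 3087 of the 16526 genes. By the test across all genes 289 genes, or 1.75% of those tested, fell at all 3 steps, and that count was 113 without T28 replicate 1.

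CETP was also highest at T27 and lowest at T30, but it did not go down steadily. Its T27 libraries held 6.51, 8.10 and 8.25 CPM, and its T28 libraries 3.01, 2.71 and 2.40 CPM. At T29 they held 1.68, 4.14 and 2.71 CPM, and at T30 1.43, 1.11 and 1.11 CPM. The T29 libraries lay on both sides of the T28 libraries, so these 2 stages overlapped, while every T27 library was above and every T30 library below all the others. CETP had the fewest reads of the 3 genes, from 32 in a T30 library to 261 in a T27 library.

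The mean of CETP was 7.62 ± 0.96 CPM (SD, n = 3) at T27, 2.705 ± 0.306 CPM (SD, n = 3) at T28, 2.85 ± 1.24 CPM (SD, n = 3) at T29 and 1.22 ± 0.181 CPM (SD, n = 3) at T30. The fitted log2 change was -1.49 (SE 0.25) from T27 to T28, 0.07 (SE 0.26) from T28 to T29 and -1.21 (SE 0.28) from T29 to T30. Over the whole span it was -2.63 (SE 0.27), a level 6.21-fold lower at T30. The sign of the middle step turned with single libraries: it was -0.30 without T29 replicate 2 and -0.01 without T28 replicate 3.

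The steps that chose the genes can be set beside how common such steps were. From T27 to T28, when HPX was higher and APOC3 and CETP lower without overlap, 14.3% of the genes tested rose and 11.8% fell. From T28 to T29 7.86% rose and 5.54% fell. At that step HPX and APOC3 were lower without overlap and CETP overlapped. From T29 to T30, when all 3 were lower without overlap, 30.3% rose and 30.1% fell. The HPX change at that step was small, at a log2 of -0.32 (SE 0.18), and ranked 5038th from the lowest of the 16526 genes. Between T27 and T30 34.8% rose and 34.1% fell, and a change between any of the stages was called for 76.8%. These calls are from edgeR's quasi-likelihood test with a Benjamini-Hochberg adjusted p below 0.05. A call is a different measure from a lack of overlap, and the share of all genes without overlap was not counted. Nothing is read from these calls about the 3 genes, since the same contrasts chose those genes.

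**Figure D2:**
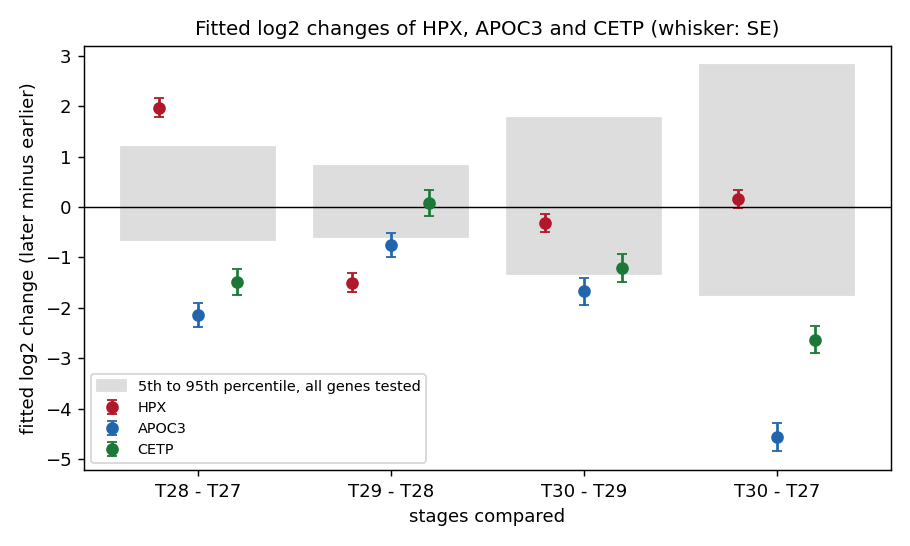
Fitted log2 change (vertical axis, later minus earlier stage) of each gene for the 3 steps and the whole span (horizontal axis), with the SE as whisker. Grey boxes span the 5th to the 95th percentile of all 16526 genes tested. HPX lies at 1.97 and then -1.50, APOC3 reaches -4.56 over the span, and CETP lies at 0.07 between T28 and T29.

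A level per length allows the 3 genes to be set against each other. In RPKM, which is the CPM divided by the exon length in kilobases, the mean level of APOC3 at T27 was 73.3, against 6.88 for HPX and 1.43 for CETP. APOC3 was then above 94.7% of the genes tested, HPX above 57.4% and CETP above 27.9%. At T28 the order of HPX and APOC3 had turned, with 27 RPKM for HPX and 16.65 RPKM for APOC3. CETP was the lowest of the 3 in every library.

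The ratio of HPX to APOC3 in mean RPKM was 0.0938 at T27, 1.62 at T28, 0.967 at T29 and 2.47 at T30. The T29 libraries fell on both sides of equality, from 0.721 to 1.87, so HPX and APOC3 were not separated there. In each of the other stages the 3 libraries gave the same order. At T30 HPX stood at 7.68 RPKM, APOC3 at 3.11 RPKM and CETP at 0.228 RPKM. APOC3 was then above 36.2% of the genes tested and CETP above 7.06%. The ratio of APOC3 to CETP went from 51.3 at T27 through 32.9 and 18.5 to 13.6 at T30.

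**Figure D3:**
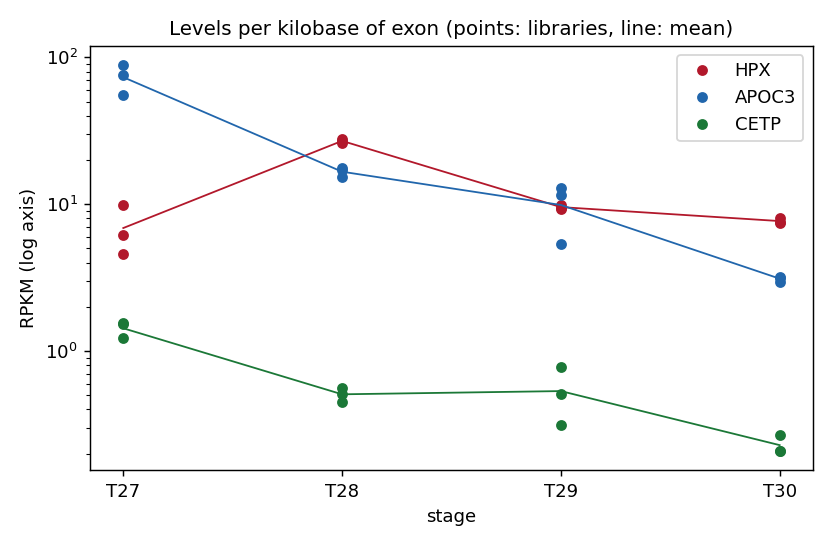
Level per kilobase of exon (vertical axis, RPKM, log axis) of the 3 genes by stage (horizontal axis), with a point for each library and lines through the stage means. APOC3 starts at a mean of 73.3 RPKM at T27 and ends at 3.11 RPKM at T30, and HPX is above it at T28 and at T30.

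Spread between libraries was uneven. The coefficient of variation of HPX was 39.1% at T27 and between 2.55% and 3.95% at the later stages. Those of APOC3 and CETP were largest at T29, at 40.6% and 43.4%. In T27 replicate 1 all 3 genes deviated from their stage mean towards their T28 level, by 0.59 for HPX, -0.38 for APOC3 and -0.22 for CETP on the log2 scale. That library also lay nearest to T28 on the first principal component. Its part in the spread was not tested. Without it the log2 change from T27 to T28 was 2.32 for HPX and -2.31 for APOC3. T29 replicate 2 held the lowest APOC3 and the highest CETP of its stage, with deviations of -0.79 and 0.62.

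Over the 12 libraries the profiles of APOC3 and CETP were closer to each other than either was to HPX. Each profile was centred on its own mean of log2 CPM and the distance taken as the root mean square difference. It was 0.92 between APOC3 and CETP, 1.37 between HPX and CETP and 1.90 between HPX and APOC3. Pearson's r over the same 12 libraries was 0.89, -0.17 and -0.07. These are descriptions of 12 libraries in 4 stages, which share their stage differences, and the genes were chosen on the same levels.

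The 4 named genes nearest to HPX by that distance, out of 6189 candidates, were DRD2, TDRD1, ANO7 and CEP152. DRD2, a dopamine receptor, was nearest at a distance of 0.35, and its mean was 0.646, 2.49, 0.905 and 0.616 CPM from T27 to T30. TDRD1, a Tudor protein of the germline piRNA pathway, was at 0.43, with means of 1.99, 6.29, 3.75 and 1.935 CPM. CEP152, a centriole duplication protein, was the most abundant of the 4 and the farthest from HPX, at 0.51. Its mean was 39.4, 75.7, 54.8 and 29.3 CPM from T27 to T30, so unlike HPX it was still well above its T27 level at T29. The median candidate lay at 0.86 from HPX.

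Nearest to APOC3 were CA10, GPR157, MAB21L1 and PRRX1, at distances from 0.56 to 0.68, with a median candidate at 1.62. CA10, a carbonic anhydrase related protein without known enzyme activity, had 4.08 ± 1.10 CPM (SD, n = 3) at T27 and 0.143 ± 0.044 CPM (SD, n = 3) by T30. PRRX1, a homeobox factor of mesenchyme, went from 100.7 to 13.5 CPM. Nearest to CETP were PALD1, FGFR2, DACT1 and FBN2, at 0.34 to 0.38, with a median candidate at 0.93. FBN2, a fibrillin of extracellular microfibrils, had 497.7 ± 22.2 CPM (SD, n = 3) at T27 and 78.1 ± 8.67 CPM (SD, n = 3) by T30. FGFR2, a receptor for fibroblast growth factors, went from 74.9 to 12.4 CPM. Ranking by Pearson's r in place of distance kept 1 of the 4 for HPX, 0 for APOC3 and 0 for CETP. With a prior count of 0.5 in place of 2 it kept 4, 3 and 4.

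Position in the genome was not used in the choice. On the assembly of the count table (kPetMar1), HPX lies on the minus strand of NC_046071.1 from 14800465 to 14814090, APOC3 on the plus strand of NC_046100.1 from 6557909 to 6562252 and CETP on the plus strand of NC_046093.1 from 6985902 to 7012150. The counted exons come to 2808 bp for HPX, 900 bp for APOC3 and 5337 bp for CETP. No other annotated gene overlaps any of them there. Of the 18 nearest genes, 3 on each side of each gene, 16 were tested. From T27 to T28, 1 of the 16 rose and 1 fell, beside 14.3% and 11.8% of all genes tested, and from T29 to T30 3 rose and 8 fell, beside 30.3% and 30.1%. From T28 to T29, 1 rose and 0 fell, beside 7.86% and 5.54%. The gene that rose, COQ9, a coenzyme Q synthesis protein near CETP, did so by 0.26 on the log2 scale (SE 0.08, adjusted p = 0.0369 by edgeR). It no longer passed when T29 replicate 1 or 3 or a T28 library was left out (adjusted p from 0.08 to 0.129 by edgeR) and with the replicate number as a block (adjusted p = 0.0555 by edgeR). Between T27 and T30 4 rose and 9 fell, beside 34.8% and 34.1%. The 4 were LOC116954649 beside HPX, LOC116948121 and UBE4A beside APOC3, and LOC116945898 beside CETP. The UBE4A call was lost without T27 replicate 2 (adjusted p = 0.053 by edgeR) and that of LOC116945898 without T27 replicate 1 or 2 or T30 replicate 2 (adjusted p from 0.063 to 0.118 by edgeR) and in the fit of the 2 stages alone (adjusted p = 0.0613 by edgeR).

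The gene that fell was next to CETP. LOC116945900, which has no name in the files used here, lies 1919 bp past CETP on the opposite strand. Its T27 libraries held 4.89, 4.94 and 5.68 CPM, and its T28 libraries 2.27, 1.28 and 1.72 CPM. At T29 they held 1.74, 2.97 and 2.15 CPM, and at T30 0.754, 0.527 and 0.834 CPM. As with CETP, the T27 libraries were the highest, the T30 libraries the lowest and T28 and T29 overlapped.

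LOC116945900 fell by 1.56 on the log2 scale from T27 to T28 (SE 0.25, adjusted p = 0.000415 by edgeR) and by 1.69 from T29 to T30 (SE 0.28, adjusted p = 0.000121 by edgeR). The step from T28 to T29 was 0.38 (SE 0.25, adjusted p = 0.359 by edgeR). Its distance to the CETP profile was 0.30, the second smallest among 14513 genes ranked without regard to name. The header of the count table sets no strand option, and in the RefSeq table of another assembly the gene models of this pair overlap. Reads of the pair may therefore not be told apart, and this was not tested. On the other side of CETP, LOC116945898 lies 2029 bp away on the same strand. It held 93.0 CPM at T27 and 93.8 CPM at T28, with a log2 difference of 0.01 (SE 0.07, adjusted p = 0.911 by edgeR).

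The gene that rose from T27 to T28 was next to HPX. LOC116954649, also without a name here, lies 5444 bp away on the opposite strand, and its means were 1.24, 2.86, 3.64 and 3.58 CPM from T27 to T30. It rose by 1.20 on the log2 scale at T28 (SE 0.20, adjusted p = 0.00055 by edgeR). At T29, where HPX was lower again, its log2 difference from T28 was 0.35 (SE 0.18, adjusted p = 0.23 by edgeR). The nearest tested gene to APOC3, PSMC4, a proteasome ATPase 1831 bp away on the opposite strand, went from 198.4 CPM at T27 to 170.1 CPM at T28 without passing the test (log2 -0.22, SE 0.09, adjusted p = 0.0706 by edgeR). It fell by 1.01 between T27 and T30 (SE 0.09, adjusted p = 8.48e-08 by edgeR), against -4.56 for APOC3.

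**Figure D4:**
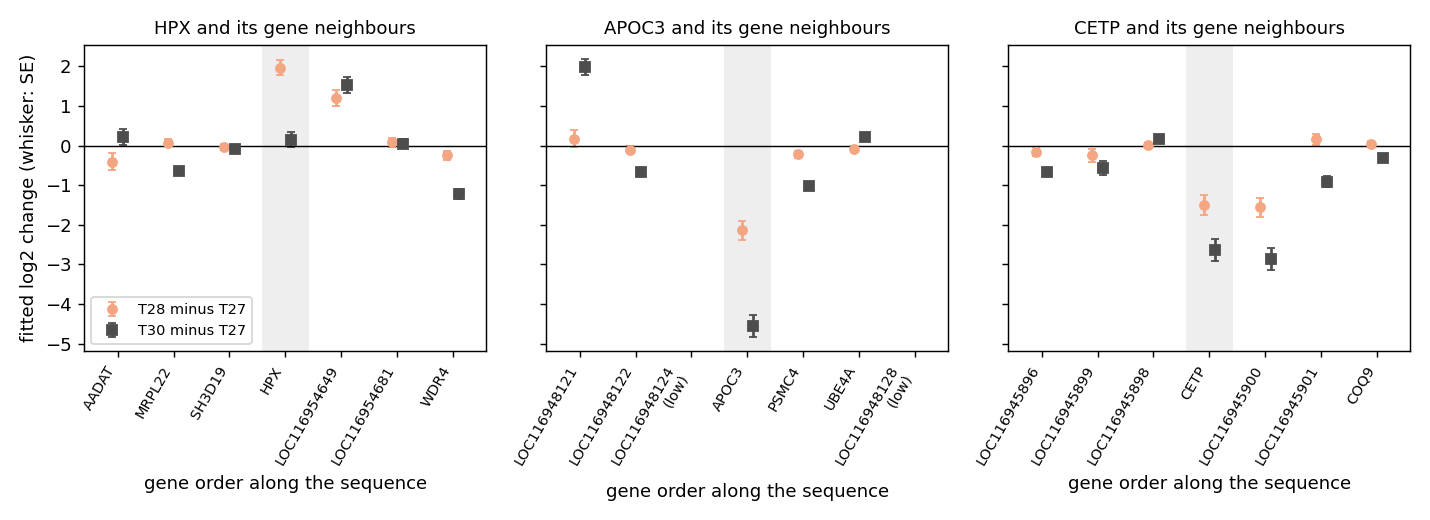
Fitted log2 change (vertical axis, SE as whisker) from T27 to T28 and from T27 to T30 for HPX, APOC3 and CETP (shaded) and the 3 annotated genes on each side, in gene order along the sequence (horizontal axis). Genes marked low had too few counts to be tested. LOC116945900 lies at -1.56 and -2.87 beside CETP at -1.49 and -2.63.

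Of 78 human-style symbols listed for secreted plasma proteins 15 were found, and 12 gene entries other than HPX had enough counts to be tested. From T27 to T28, 2 of the 12 rose and 0 fell, beside 14.3% and 11.8% of all genes tested, so the share that rose was near that of all genes. ITIH2, a heavy chain of the inter-alpha-trypsin inhibitor, rose by 1.27 on the log2 scale (SE 0.23, adjusted p = 0.00119 by edgeR), from 1.04 to 2.50 CPM. RBP4, the plasma carrier of retinol, rose by 0.64 (SE 0.20, adjusted p = 0.0272 by edgeR), from 31.6 to 49.3 CPM. The RBP4 call was lost without T27 replicate 1 or 2 or without any of the T28 libraries, with an adjusted p from 0.0514 to 0.0955 by edgeR. The median log2 change of the 12 was -0.20 at this step and that of all genes tested was -0.02.

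At T29 IGF1, a growth factor that the liver releases into the blood in mammals, was the 1 gene of the 12 that changed. It fell by 0.48 on the log2 scale (SE 0.13, adjusted p = 0.025 by edgeR). That call was lost without T28 replicate 1 or 3 or T29 replicate 1 or 3, with an adjusted p from 0.0611 to 0.127 by edgeR. ITIH2 did not pass the test there, at a log2 difference of -0.63 (SE 0.22, adjusted p = 0.0768 by edgeR). HPX had the second highest level per length among the 16 plasma protein entries at every stage, behind RBP4, which had 43.7 RPKM at T28.

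From T29 to T30, 2 of the 12 rose, both named PLG, and 3 fell, which were IGF1, F2 and FGG. Over that step 30.3% of all genes rose and 30.1% fell. Between T27 and T30, 2 of the 12 rose and 5 fell, beside 34.8% and 34.1% of all genes. IGF1 went from 15.7 to 3.10 CPM and fell by 2.34 on the log2 scale (SE 0.14, adjusted p = 1.64e-09 by edgeR). F2, prothrombin, went from 12.7 to 4.53 CPM and fell by 1.49 (SE 0.20, adjusted p = 8.98e-06 by edgeR). SERPINF1, a secreted serpin also called PEDF, fell by 1.37 (SE 0.31, adjusted p = 0.00125 by edgeR). FGG, the fibrinogen gamma chain, fell by 1.6 (SE 0.51, adjusted p = 0.0117 by edgeR), and VWF, a clotting factor that endothelium makes, by 0.71 (SE 0.18, adjusted p = 0.00247 by edgeR). The FGG call was lost without T27 replicate 1 (adjusted p = 0.0709 by edgeR), and FGG was low, at 0.376 CPM at T27 and 0.118 CPM at T30. The fibrinogen chain genes FGA and FGB did not pass the test over the span. Their log2 differences were -0.25 (SE 0.33, adjusted p = 0.512 by edgeR) and 0.44 (SE 0.25, adjusted p = 0.138 by edgeR). The 2 that rose were again both named PLG, plasminogen, at 1.23 and 0.749 CPM at T30, and reads may be split between the 2 copies. ALB, serum albumin in mammals, had under 0.1 CPM in every library, and TTR, the thyroid hormone carrier transthyretin, had stage means from 0.607 to 0.873 CPM.

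Of 57 symbols listed for lipoprotein and lipid transport 16 were found, and 13 genes besides APOC3 and CETP were tested. From T27 to T28, 1 rose and 2 fell, beside 14.3% and 11.8% of all genes tested. LRP2, megalin, an endocytic receptor of epithelia, rose by 1.57 on the log2 scale (SE 0.17, adjusted p = 2.01e-05 by edgeR). LRP1, a receptor for apolipoprotein E remnants that also takes up haem bound to hemopexin in humans, fell by 0.47 (SE 0.09, adjusted p = 0.00114 by edgeR), from 79.5 to 57.2 CPM. APOB, the structural protein of large lipoproteins, fell by 1.01 (SE 0.34, adjusted p = 0.0412 by edgeR), from 0.832 to 0.409 CPM. Of the 12 fits that left out a library, those without T27 replicate 1, T28 replicate 2 or T29 replicate 3 kept the APOB call. The other 9 gave an adjusted p from 0.0504 to 0.19 by edgeR. It was also lost under limma-voom (adjusted p = 0.0574) and in the edgeR fit of the 2 stages alone (adjusted p = 0.0911).

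From T28 to T29, 1 of the 13 rose and 1 fell, beside 7.86% and 5.54% of all genes tested. LMF1, a chaperone of lipoprotein lipase named here because its values were seen, rose by 0.21 (SE 0.06, adjusted p = 0.043 by edgeR), and LRP2 fell by 0.54 (SE 0.16, adjusted p = 0.0369 by edgeR). Neither call held in every fit. The LMF1 call was lost in 8 of the 12 fits that left out a library, all but those without T27 replicate 3 or a T30 library (adjusted p from 0.0524 to 0.141 by edgeR), and with the replicate number as a block (adjusted p = 0.0739 by edgeR). It was also lost with RLE size factors (adjusted p = 0.0507), total-count scaling (adjusted p = 0.0526) and no filter on low counts (adjusted p = 0.0674), all by edgeR. That of LRP2 did not pass without T28 replicate 1 or 3, nor without T29 replicate 1 or 3 (adjusted p from 0.0531 to 0.177 by edgeR), nor in the fit of the 2 stages alone (adjusted p = 0.055 by edgeR).

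From T29 to T30 6 of the 13 rose and 4 fell, beside 30.3% and 30.1% of all genes tested. Over the whole span 6 again rose and 4 fell, beside 34.8% and 34.1%, so genes that fell were about as frequent as among all genes. APOB went from 0.832 to 2.67 CPM and rose by 1.68 on the log2 scale (SE 0.28, adjusted p = 9.67e-05 by edgeR). APOC3, which shares particles with it in mammals, lay at -4.56. Per length APOB was low, at 0.047 RPKM at T27 and 0.152 RPKM at T30. The median gene tested had 5.10 RPKM at T27 and 5.60 RPKM at T30. CLU, clusterin, an apolipoprotein and extracellular chaperone, rose by 2.84 (SE 0.19, adjusted p = 7.06e-09 by edgeR), from 5.44 to 39.1 CPM. LRP2 rose by 3.15 (SE 0.17, adjusted p = 5.83e-10 by edgeR). AMN and CUBN, which form a joint endocytic receptor, fell by 1.87 (SE 0.24, adjusted p = 7.39e-06 by edgeR) and by 1.78 (SE 0.42, adjusted p = 0.00174 by edgeR). The other 2 that fell were NPC2, by 0.97 (SE 0.12, adjusted p = 4.64e-06 by edgeR), and LRP1, by 0.22 (SE 0.09, adjusted p = 0.0336 by edgeR). The LRP1 call over the span was lost without T27 replicate 2 or 3 or T30 replicate 1 or 2 (adjusted p from 0.0689 to 0.14 by edgeR), with total-count scaling (adjusted p = 0.0938) and in the fit of the 2 stages alone (adjusted p = 0.06). The median log2 change of the 13 over the span was -0.16, beside 0.01 for all genes tested. APOC3 had the second highest level per length of the 16 genes of this list at T27 and the tenth at T30, while NPC2, a cholesterol carrier of the lysosome, was highest at all 4 stages.

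Genes that make, break down or carry haem and iron were listed because hemopexin binds haem. Of 53 symbols 21 were found, and 20 besides HPX were tested. At T28, when HPX was highest, 1 of the 20 had risen from T27 and 4 had fallen, beside 14.3% and 11.8% of all genes tested. NCOA4, which sends ferritin to the lysosome, rose by 0.48 on the log2 scale (SE 0.09, adjusted p = 0.00171 by edgeR). LRP1, given above, was among the 4 that fell. BLVRA, a biliverdin reductase, fell by 0.43 (SE 0.12, adjusted p = 0.019 by edgeR). PGRMC1, a haem-binding membrane protein, fell by 0.34 (SE 0.11, adjusted p = 0.0271 by edgeR). FECH, which inserts iron into protoporphyrin to make haem, fell by 0.30 (SE 0.10, adjusted p = 0.0427 by edgeR).

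The BLVRA call was lost without T27 replicate 2 or 3 or T28 replicate 2 or 3 (adjusted p from 0.0544 to 0.0766 by edgeR). The PGRMC1 call was lost without T27 replicate 2 or 3 or any of the T28 libraries (adjusted p from 0.051 to 0.102 by edgeR). The FECH call was lost without T27 replicate 1 or 3, any T28 library, T29 replicate 2 or T30 replicate 3 (adjusted p from 0.0547 to 0.192 by edgeR) and with RLE size factors (adjusted p = 0.0514 by edgeR). From T28 to T29 NCOA4 alone changed of the 20 and rose again, by 0.42 (SE 0.09, adjusted p = 0.00894 by edgeR).

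From T29 to T30 9 of the 20 rose and 7 fell, beside 30.3% and 30.1% of all genes tested. Between T27 and T30 6 rose and 8 fell, beside 34.8% and 34.1%, so both shares over the span were near those of all genes. Genes of haem synthesis were among those that fell: UROD by 1.01 (SE 0.10, adjusted p = 2.53e-07 by edgeR), ALAD by 0.72 (SE 0.11, adjusted p = 4.21e-05 by edgeR) and FECH by 0.70 (SE 0.10, adjusted p = 2.34e-05 by edgeR). ABCG2, an exporter of porphyrins and other molecules, rose by 1.87 (SE 0.27, adjusted p = 1.94e-05 by edgeR), and FTH1, the ferritin heavy chain, rose by 0.61 (SE 0.12, adjusted p = 0.00043 by edgeR). The median log2 change of the 20 was -0.08 over the span and -0.01 from T27 to T28. HPX itself lay at 0.16 and 1.97.

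**Figure D5:**
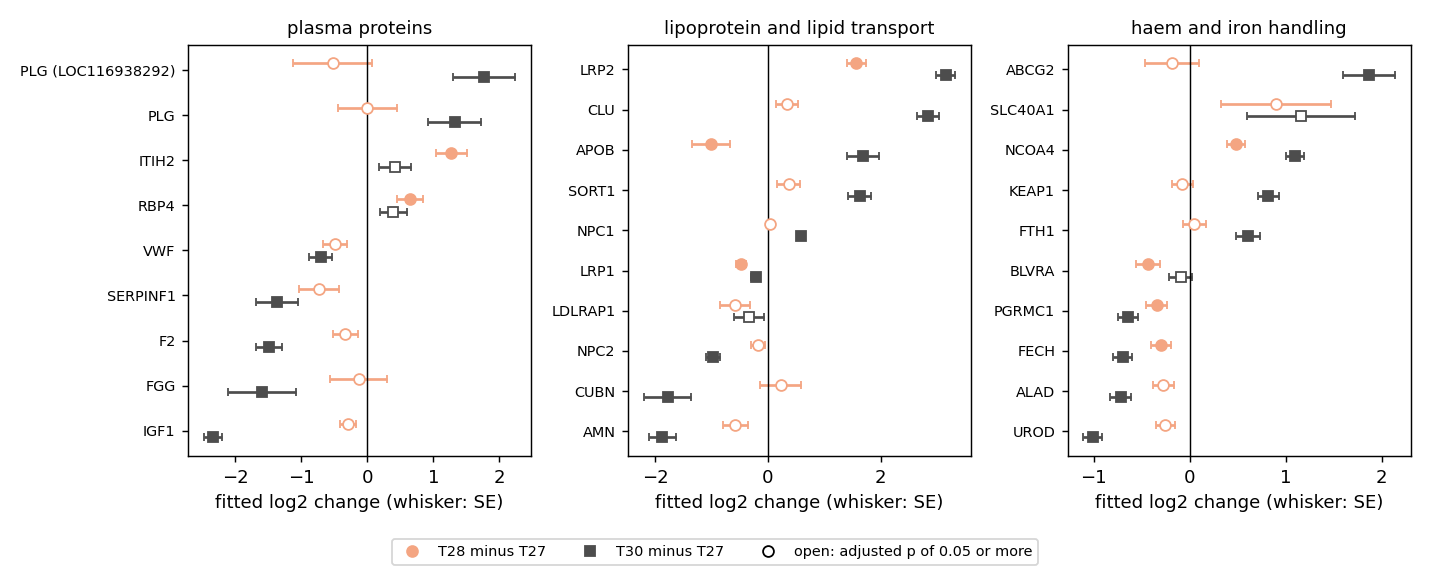
Fitted log2 change (horizontal axis, SE as whisker) from T27 to T28 and from T27 to T30 for the named genes (vertical axis) of 3 lists: plasma proteins, lipoprotein and lipid transport, and haem and iron handling. Filled markers passed an adjusted p of 0.05. ITIH2 at 1.27, RBP4 at 0.64, LRP2 at 1.57 and NCOA4 at 0.48 are the 4 with filled positive markers from T27 to T28.

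Markers of 6 cell types also moved with stage. Whether any of these cell types made HPX, APOC3 or CETP transcripts here was not tested. Of 43 liver cell markers 20 were found, and their summed level was 736.9 to 805.9 CPM at T27, 988.5 to 1171 CPM at T28, 1042 to 1193 CPM at T29 and 1555 to 1716 CPM at T30. From T27 to T28, 5 of the 20 rose and 3 fell, beside 14.3% and 11.8% of all genes tested. Between T27 and T30 13 rose and 3 fell, beside 34.8% and 34.1%. GLUL, a glutamine synthetase that many tissues express, held 353 to 877 CPM of that sum in stage means. The sum was highest at T30, where APOC3 and CETP were lowest.

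Of 29 erythroid markers 4 were found, with sums of 16.6 to 20.6 CPM at T27, 15.1 to 16.95 CPM at T28, 15.4 to 19.6 CPM at T29 and 7.14 to 7.47 CPM at T30. Of 38 leukocyte markers 3 were found, with sums of 25.5 to 34.9 CPM at T27, 20.9 to 41.6 CPM at T28, 10.35 to 12.98 CPM at T29 and 1.99 to 2.20 CPM at T30. Of 30 endothelium markers 6 were found, at 209.4 to 224.2 CPM at T27, 213.8 to 239.9 CPM at T28, 209.3 to 245.4 CPM at T29 and 252.2 to 268 CPM at T30. S1PR1 made up much of that sum, with 107.7 CPM at T27 and 160.1 CPM at T30, and over the span 2 of the 6 rose and 3 fell (VWF, TIE1 and SOX7), with a median log2 change of -0.11. The TIE1 call was lost without T27 replicate 2 or 3 or T30 replicate 1 or 3 (adjusted p from 0.0681 to 0.128 by edgeR), and that of SOX7 without T30 replicate 3 (adjusted p = 0.0582 by edgeR). Of 23 gut epithelium markers 7 were found, at 71.5 to 88.1 CPM at T27, 103.4 to 116.1 CPM at T28, 110.8 to 128.7 CPM at T29 and 194.3 to 214.2 CPM at T30. VIL1, villin, made up nearly all of that sum, with 72.85 CPM at T27 and 199.6 CPM at T30, and over the span 2 of the 6 tested rose and 2 fell (CUBN and AMN), with a median log2 change of -0.03. Of 28 muscle markers 8 were found, at 112.1 to 156.5 CPM at T27, 190.9 to 324.6 CPM at T28, 465.3 to 603.2 CPM at T29 and 702.1 to 1259 CPM at T30. No marker of the 6 lists was at 0 in all libraries. None of the 6 lists had its highest median sum at T28, but some single markers had their highest mean there. Among them was ACOD1, a leukocyte marker, with 15.3, 19.35, 3.34 and 0.51 CPM from T27 to T30. Its change from T27 to T28 did not pass the test (log2 0.34, SE 0.37, adjusted p = 0.537 by edgeR). Another was PROX1, a liver cell marker, with 64.6, 85.2, 81.6 and 63.5 CPM. Other abundant liver cell markers took other courses. HPD had 41.5, 45.1, 71.4 and 175.4 CPM, and FAH had 95.7, 72.6, 68.4 and 57.3 CPM. PROX1 rose by 0.40 on the log2 scale from T27 to T28 (SE 0.10, adjusted p = 0.00727 by edgeR). From T28 to T29 its log2 difference was -0.06 (SE 0.10, adjusted p = 0.726 by edgeR). The part of these cell types in the levels of HPX, APOC3 and CETP was not tested.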

How the data were processed

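Per the labels, RNA from the endostyle of Petromyzon marinus was made into 12 libraries, 3 for each of stages T27, T28, T29 and T30. Raw counts for each gene were deposited by the authors, made with featureCounts 1.6.3 on a kPetMar1 annotation, per the file headers, which name no strand, pair or multiple-mapping option. Bowtie2 and DESeq2 are also named in the submitters' processing notes, without versions. The deposited table also gives gene lengths in bp. A second deposited table holds z-scores (a score per gene for 1671 genes in 6 columns). It contains 0 of the 3 genes described and was not used for a comparison.

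The counts were fitted with edgeR 4.0.16 (R 4.3.3): filterByExpr with a minimum count of 10, TMM scaling, stage as the only term, and the quasi-likelihood test with Benjamini-Hochberg adjustment over 16526 genes at a threshold of 0.05. All 12 libraries shared 8 residual degrees of freedom, and the common biological coefficient of variation was 12.4%. The SE was taken as the absolute log2 change over the square root of the F statistic. The fit was tested on simulated data. CPM and RPKM used TMM library sizes. Library totals were 28371140 to 36032488 counts. LOC116945897 was matched to CETP, and other locus numbers to names (688 of 13987), through the RefSeq table of another assembly. Coordinates of that assembly were used only to see whether the gene models of CETP and LOC116945900 overlap.

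Named genes are the 3 described, the 4 nearest profiles of each among symbols with a mean of at least 1 CPM, the 3 neighbours on each side, at most 10 genes changed at any stage per pathway list and at most 4 abundant genes per marker list. TTR, ALB, FGA, FGB, LMF1 and SOX7 and the tissue markers fall outside this rule. The members and lists were chosen with earlier results of these data known. Alternatives were RLE or total-count scaling, DESeq2 1.42.0, limma-voom (limma 3.58.1), no filter, a replicate block, a fit of 2 stages alone and leaving out each library.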

Additional observations from a re-analysis of the deposited data

How the results depend on the processing

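Over all settings, HPX from T27 to T28, from T28 to T29 and from T29 to T30, APOC3 at every step, and CETP from T27 to T28 and from T29 to T30 kept their sign. The difference of HPX between T27 and T30 ranged from -0.07 to 0.50 with a library left out (0.16 with all) and was -0.0681 without T27 replicate 3. The difference of CETP between T28 and T29 ranged from -0.30 to 0.35 (0.07 with all), was -0.30 without T29 replicate 2 and -0.01 without T28 replicate 3, and was -0.0136 by limma-voom. With a library left out the genes changed from T28 to T29 ranged from 1192 to 2395 (2215 with all), those that rose at T28 and fell at T29 from 54 to 107 (96), and those that fell at all 3 steps from 113 to 307 (289). List counts ranged from 1 to 3 (2) and 0 to 1 (1) for plasma proteins at the first and second step, from 0 to 2 (2) for lipid transport at the second, and from 2 to 6 (5) for haem handling at the first. Plasma proteins changed from T27 to T28 were 4 in the fit of those 2 stages alone. Lipid transport genes changed from T28 to T29 were 1 under RLE scaling, total counts, no filter, the replicate block and the fit of 2 stages alone. Haem genes changed from T27 to T28 were 8 under total counts. The cause of these moves was not tested. The fits that leave out a library also have fewer samples, and the part of that was not tested either. With the replicate block 4063, 2007, 9821 and 11276 genes changed in the 4 comparisons. The labels do not say whether replicate numbers pair the libraries. Of 18 same-number correlations of deviations, from -0.289 to 0.241, 4 passed 0.1. Libraries of different number were not compared in this way, so pairing is not settled by these values. Of 180 calls of named genes, 0 reversed and at most 13 were lost in a fit that left out a library. Low counts limit CETP, with as few as 32 reads in a library.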
